A study of Mus musculus with 9 samples.

Results

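Bdnf, its relative Ntf3, the receptors Ntrk2 and Ntrk3 and the sorting receptor Sort1 were followed in ribosome-associated RNA of neurons of the mouse medial prefrontal cortex. They are 5 of the 47593 gene symbols of the deposited transcript tables, chosen by name as the neurotrophin genes of this tissue, with all their transcripts: 11 of Bdnf, 3 of Ntf3, 2 of Ntrk2, 20 of Ntrk3 and 3 of Sort1. The 9 libraries, all from adult C57BL/6 mice, fall into 3 groups of 3: enforced wake with overexpressed GFP-Fxr1 (below, Fxr1 wake), enforced wake with GFP alone (control wake), and sleep with GFP alone (control sleep). The protein that Fxr1 encodes binds RNA and is related to FMRP, and both constructs were delivered to the prefrontal cortex, so the control libraries carry an overexpressed GFP as well. RNA was isolated by RiboTag, an immunoprecipitation of tagged ribosomes from the cells that carry the tag; the labels do not name the driver of the tag, the means of delivery, the age in weeks or the length of the enforced wake. They also do not say whether the libraries of a group come from separate animals, so the p-values measure only the spread between these samples.

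Neurotrophins are secreted proteins that support neurons and adjust synapses. BDNF binds the receptor kinase TrkB, encoded by Ntrk2, and neurotrophin 3, encoded by Ntf3, binds mainly TrkC, encoded by Ntrk3. Both receptor genes also give truncated proteins that hold the ligand-binding and membrane-spanning parts but lack the kinase. Sortilin, the product of Sort1, binds the BDNF precursor and takes part in its intracellular traffic. The Bdnf gene is known for a row of alternative 5′ exons, each with its own promoter and each spliced to 1 shared coding exon. In cortical neurons the promoters upstream of exons I and IV are known to respond to neuronal activity.

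All 11 annotated Bdnf transcripts end in the same exon of 3626 bases, which carries the coding sequence of BDNF, and they start at 9 different positions (GRCm38 chromosome 2, plus strand, gene span 109674700 to 109727007, ENSMUSG00000048482). Their first exons are 81 to 640 bases long, and these short stretches are nearly all that tells the transcripts apart. The exon I transcript, ENSMUST00000053317, starts at 109674700, and the exon IV transcript, ENSMUST00000111050, starts at 109692436. The exon I form is annotated with a coding sequence of 771 bases, against 747 for exon IV. The 250 bases upstream of these 2 starts are shown because their transcripts had the highest means of the gene in each group, and because the results below turn on the first of them. Capitals mark the letters TGACG, a half-site of the cAMP response element (CRE) that CREB binds, and TCGTG, the core of the element known to bind NPAS4 with ARNT2 (PasRE), each on either strand and with no overlap between them. The sequences are credited to RefSeq on GRCm38.p6, and 7 Bdnf starts have a window there.
Exon I, chr2:109674450-109674699, plus strand: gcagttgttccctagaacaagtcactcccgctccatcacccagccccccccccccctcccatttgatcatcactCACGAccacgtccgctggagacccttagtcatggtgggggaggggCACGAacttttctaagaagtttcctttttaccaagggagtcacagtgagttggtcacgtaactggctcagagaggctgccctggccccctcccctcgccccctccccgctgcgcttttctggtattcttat
Exon IV, chr2:109692186-109692435, plus strand: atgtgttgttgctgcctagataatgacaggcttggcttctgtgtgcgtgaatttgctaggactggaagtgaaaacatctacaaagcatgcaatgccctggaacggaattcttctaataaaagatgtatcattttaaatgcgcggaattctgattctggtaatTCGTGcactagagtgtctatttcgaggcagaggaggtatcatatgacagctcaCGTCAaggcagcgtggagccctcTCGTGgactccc
The exon IV window holds 1 TGACG, 35 bases upstream of the start, and 2 TCGTG, 88 and 12 bases upstream. The exon I window holds 2 TCGTG, 176 and 131 bases upstream, and no TGACG, while none of the other 5 Bdnf windows holds either. Among 32851 mouse promoter windows of the same length, 17.8% hold TGACG and 13.3% hold TCGTG, so a match of such short letters is common and marks no proven site.

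The receptor gene Ntrk2 (GRCm38 chromosome 13, 58806569 to 59133970, plus strand, ENSMUSG00000055254) has 2 transcripts in the tables. ENSMUST00000079828 encodes the full receptor with its kinase in 2463 coding bases, stop codon not counted. ENSMUST00000109838 encodes the truncated receptor in 1428. They share their first 1393 coding bases, and the last 30 of these, at chr13:58878233-58878262, are printed below in lower case with the next 38 bases of each in capitals. The split is shown because it is where the coding sequences of the 2 forms, whose shares are compared below, part.
Ntrk2 kinase-encoding: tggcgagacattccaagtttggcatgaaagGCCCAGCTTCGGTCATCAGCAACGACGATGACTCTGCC
Ntrk2 truncated: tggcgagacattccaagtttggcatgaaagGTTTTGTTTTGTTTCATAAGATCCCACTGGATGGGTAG
The truncated form reaches its stop codon at the end of these 38 bases, whereas the kinase-encoding form goes on for 1073 coding bases after the split, stop codon counted. Only 11 of the 38 bases are identical, so fragments that cross the split belong to 1 form.

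Values are FPKM, fragments scaled to transcript length and to the mapped fragments of a library, and a gene level is the sum over its transcripts. Fold changes are differences of log2(FPKM + 1), tested with limma across all genes or transcripts with a mean of at least 0.5 FPKM, and a change is called at a Benjamini-Hochberg adjusted p below 0.05. Depth, estimated from the smallest steps of the values, was 2.99e7 to 3.73e7 fragments per library. Fxr1 itself was at 91.1, 67.7 and 71.8 FPKM in Fxr1 wake, against 34.8, 33.9 and 31.1 FPKM in control wake. One library stood apart: library 1 of Fxr1 wake had a score of 64.1 on the first principal component, and the other 8 libraries lay between -31.2 and 13.3. The libraries also differed in base composition, with a rank correlation between gene GC content and deviation from the mean library of -0.80, -0.42 and -0.26 in Fxr1 wake, 0.65, 0.70 and 0.74 in control wake and 0.25, -0.39 and 0.17 in control sleep. Gene values with that trend removed are therefore given beside many gene results below. The trend was removed for genes only, so transcript levels, transcript shares and transcript ratios have no corrected value. The summed markers of 10 genes each for excitatory and inhibitory neurons lay at 571 to 955 FPKM and 324 to 405 FPKM over the 9 libraries. Cells other than neurons also gave signal: all 15 astrocyte, 10 oligodendrocyte and 10 microglia markers were above 0, and the summed astrocyte markers lay at 533 to 621 FPKM in Fxr1 wake, 686 to 829 FPKM in control wake and 599 to 678 FPKM in control sleep.

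Bdnf, the ligand of TrkB, rose in wake. Its level was 27.0, 30.7 and 25.9 FPKM in control wake, against 12.7, 11.6 and 12.3 FPKM in control sleep. Every control wake library was above every control sleep library, and the ratio of the means was 2.28. On the log2 scale the difference was 1.13 ± 0.08 (SE, n = 3 and 3; limma, adjusted p = 0.00109). With the trend of GC content and length removed it was 1.3. Bdnf was 1 of 2 called members of 5, both higher, in a comparison in which 28.3% of all 14673 genes tested were called, 15.7% were called higher and 49.5% had groups that did not overlap. The median log2 fold change over the 5 members was 0.15, against 0.00 over all genes. In bulk libraries of this kind, fewer cells of a type and less RNA per cell cannot be told apart.

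With Fxr1 in wake, no difference in Bdnf from control wake was called. It was at 33.7, 30.1 and 28 FPKM in Fxr1 wake, a range that overlaps that of control wake. The log2 fold change of Fxr1 wake against control wake was 0.13, with a 95% interval of -0.13 to 0.39 (limma, adjusted p = 0.377). Its sign depended on the scaling: with the GC and length trend removed it was -0.16, and with every library set to the same median it was 0.31. Against control sleep, Bdnf rose by 1.26 ± 0.09 (SE) on the log2 scale in Fxr1 wake (limma, adjusted p = 0.00122), a ratio of means of 2.51. It was the only called member of 5 there, where 7.79% of 14617 genes were called, 3.2% were called higher and 32.7% had groups that did not overlap. None of the 5 members was called between Fxr1 wake and control wake by limma, with 1 at an unadjusted p below 0.05. Over all genes 37.4% had an unadjusted limma p of 0.0479 or less there, so such a value was common. In that comparison 60 of 14563 genes, 0.412%, were called. The comparisons share libraries, so their values stand side by side and are no separate support for each other.

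**Figure D1:**
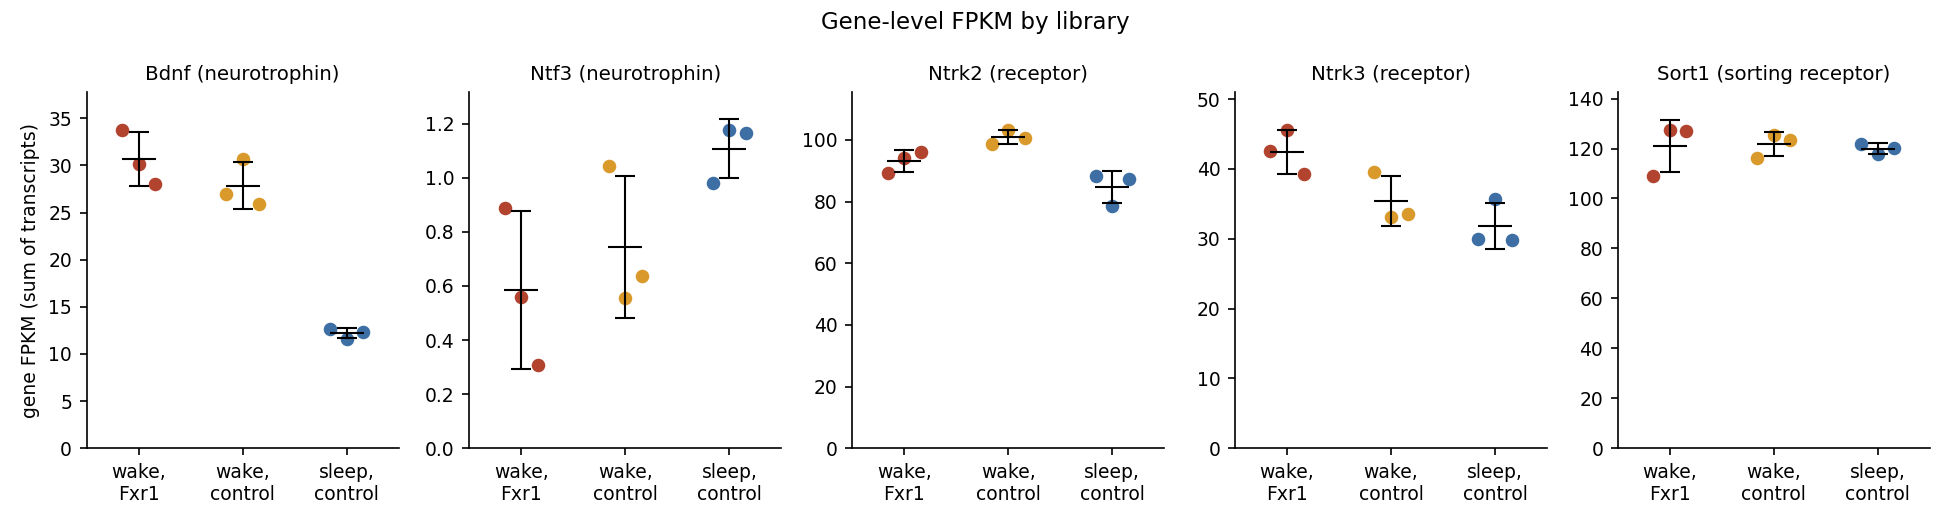
Gene-level FPKM (vertical axes, from 0) of the 5 members in the 9 libraries: points are libraries, and bars give the mean and SD of the 3 libraries of a group (wake with Fxr1, control wake, control sleep, left to right). Bdnf lies at 25.9 to 33.7 FPKM in the 6 wake libraries and at 11.6 to 12.7 FPKM in the 3 sleep libraries; the Ntf3 axis ends near 1 FPKM.

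The rise of Bdnf lay mostly in 1 transcript. The exon I transcript ENSMUST00000053317 was at 20.1, 16.9 and 18.5 FPKM in Fxr1 wake, 13.6, 17.0 and 15.3 FPKM in control wake, and 2.91, 3.08 and 2.17 FPKM in control sleep. Both wake groups were far above sleep, with no library in between, and they overlapped each other. The ratio of means was 5.62 for control wake over control sleep and 6.79 for Fxr1 wake over control sleep. On the log2 scale it rose by 2.13 ± 0.14 (SE) in control wake against control sleep (limma, adjusted p = 0.00664) and by 2.39 ± 0.13 (SE) in Fxr1 wake against control sleep (limma, adjusted p = 0.000853). The difference was 0.26 in Fxr1 wake against control wake, with a 95% interval of -0.04 to 0.56 (limma, adjusted p = 0.291).

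No other transcript of the 5 genes was called in any of the 3 comparisons. In control wake against control sleep that makes 1 of 15 transcripts tested, where 3.62% of all 29116 transcripts were called, 2.05% were called higher and 32.8% had groups that did not overlap, and 5 of the 15 had an unadjusted p below 0.05. Against control sleep, Fxr1 wake had 1 of 14, with 6 at an unadjusted p below 0.05, where 0.818% of 28989 were called and 0.479% were called higher. Between Fxr1 wake and control wake limma called 0 of 13, with 2 at an unadjusted p below 0.05, where 0.895% of 28837 were called. These shares are of adjusted calls, and the share of all transcripts below an unadjusted p of 0.05 is not given. The unadjusted counts therefore cannot be set against all transcripts. In the authors' deposited tables no transcript of the 5 genes had a q-value below 0.05; for the exon I transcript the authors' deposited table gives a fold of sleep over wake of 0.219, with p = 0.00360 and q = 0.444.

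The exon IV transcript was the most abundant Bdnf form in sleep. It was at 8.74, 6.52 and 4.60 FPKM in Fxr1 wake, 5.96, 7.11 and 5.39 FPKM in control wake, and 3.93, 4.23 and 3.35 FPKM in control sleep. All 6 wake libraries were above all 3 sleep libraries. Its log2 fold change was 0.56 ± 0.13 (SE) in control wake against control sleep, which was not called (limma, adjusted p = 0.0855). In Fxr1 wake against control sleep it was 0.62 (limma, adjusted p = 0.236), and between Fxr1 wake and control wake it was 0.06 (limma, adjusted p = 0.894). Exon IV thus had a positive difference in wake of a smaller size than exon I, and the ratio of exon I to exon IV was 2.30, 2.59 and 4.02 in Fxr1 wake, 2.28, 2.39 and 2.83 in control wake, and 0.741, 0.728 and 0.648 in control sleep. An exact permutation test of that ratio gave p = 0.1, 2-sided, for each wake group against sleep, the smallest p that 3 against 3 libraries allow, and p = 0.6 between the wake groups. This ratio was added outside the planned tests.

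Exon II starts 3 transcripts, of which ENSMUST00000111051 was the most abundant. It averaged 3.26 ± 0.62 FPKM in Fxr1 wake, 3.24 ± 0.69 FPKM in control wake and 1.86 ± 0.51 FPKM in control sleep (SD, n = 3 each), and its log2 fold change in control wake against control sleep was 0.57 (limma, adjusted p = 0.170). A shorter exon II form, ENSMUST00000111047, had the opposite order of means, at 0.294 ± 0.107 FPKM in Fxr1 wake, 0.537 ± 0.427 FPKM in control wake and 1.02 ± 0.29 FPKM in control sleep (SD, n = 3 each). It was not called either. Summed, the 3 forms were at 3.83 ± 0.65 FPKM in Fxr1 wake, 3.90 ± 0.84 FPKM in control wake and 3.27 ± 0.44 FPKM in control sleep, which did not separate (exact permutation test, 2-sided, p = 0.4 for Fxr1 wake and p = 0.3 for control wake against sleep). The exon VI transcript ENSMUST00000111045 was at 0.597 to 1.80 FPKM in Fxr1 wake, 1.93 to 2.27 FPKM in control wake and 1.02 to 2.87 FPKM in control sleep, so sleep overlapped both wake groups, while Fxr1 wake lay below control wake in every library without a call (limma, adjusted p = 0.331). The other 6 transcripts, among them those from exons III, V, VII and VIII, had a mean below 0.5 FPKM over the 9 libraries, and 1 of them, ENSMUST00000111043, was listed at 0 throughout.

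**Figure D2:**
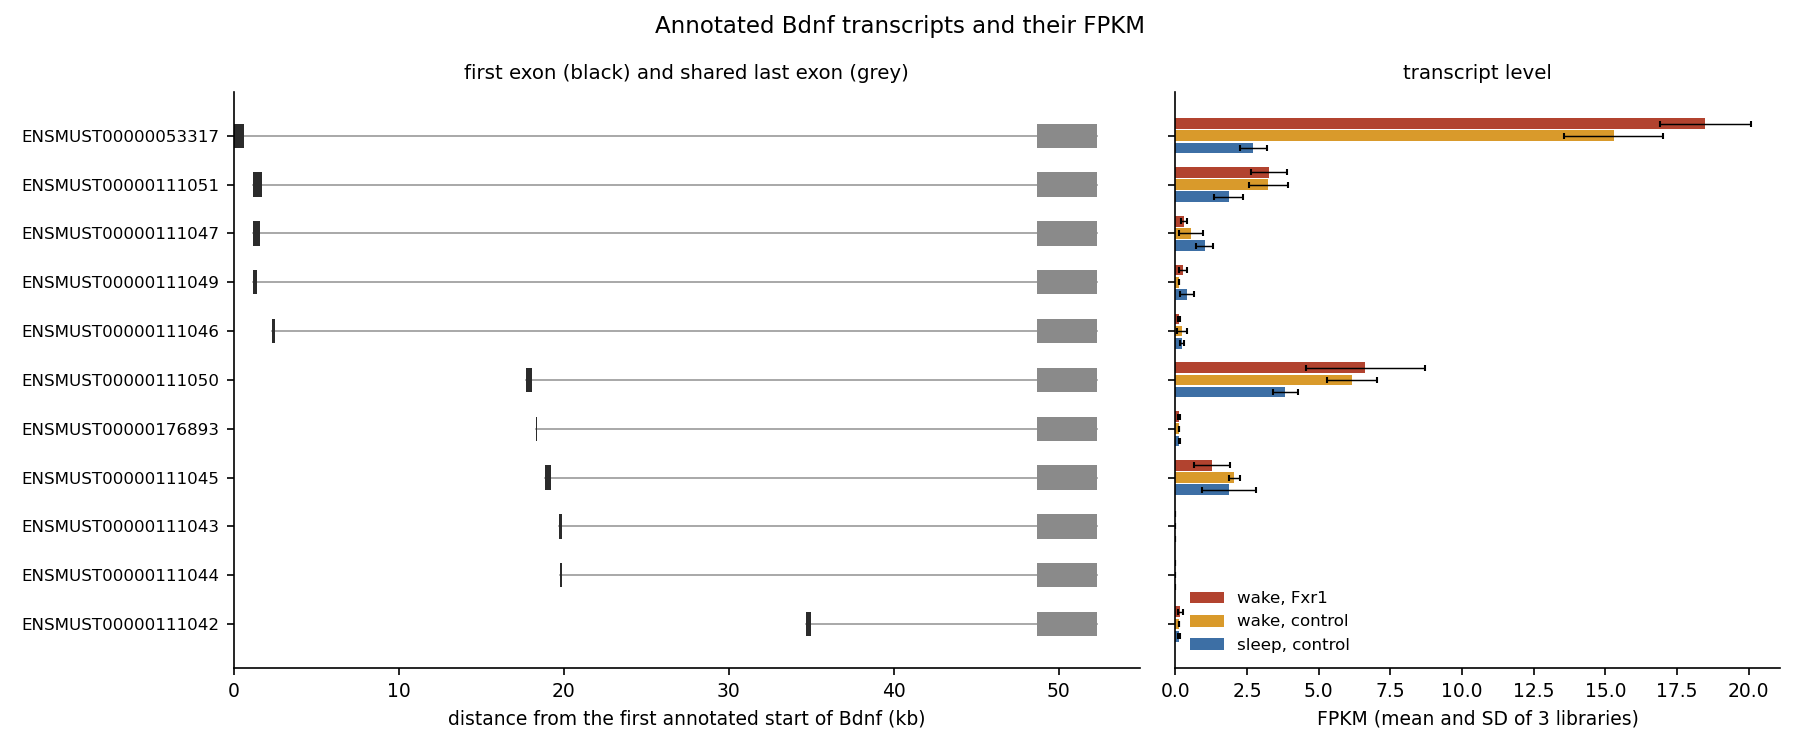
Left, the 11 annotated Bdnf transcripts drawn to scale by distance from the first start (kb), with the first exon in black and the shared last exon in grey; right, their FPKM as mean and SD of 3 libraries per group. The exon I transcript at the top averages 18.5 FPKM in wake with Fxr1, 15.3 FPKM in control wake and 2.72 FPKM in control sleep, and no other transcript shows a gap of that size.

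Without the exon I transcript, the remaining Bdnf sum was 13.7, 13.2 and 9.58 FPKM in Fxr1 wake, 13.4, 13.7 and 10.7 FPKM in control wake, and 9.75, 8.54 and 10.1 FPKM in control sleep. Control wake lay above control sleep by a ratio of means of 1.33, and Fxr1 wake overlapped sleep. Of the gene's difference of 15.7 FPKM between control wake and control sleep, the exon I transcript made up 12.6 FPKM. These sums were chosen after the transcript values were seen.

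Expressed as a share of the gene, exon I made up 59.5%, 56.1% and 65.8% of Bdnf FPKM in Fxr1 wake, 50.3%, 55.4% and 58.9% in control wake, and 23.0%, 26.5% and 17.6% in control sleep. Both wake groups were separate from sleep. The share of exon IV averaged 21.3 ± 4.8% in Fxr1 wake, 22 ± 1.2% in control wake and 31.6 ± 4.6% in control sleep (SD, n = 3 each). The share of the 3 exon II forms together averaged 12.5 ± 2.0% in Fxr1 wake, 14.0 ± 2.7% in control wake and 26.7 ± 2.5% in control sleep (SD, n = 3 each). Shares sum to a fixed total, so a larger share of exon I leaves less for the others whatever their own level.

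The test of usage compared the log2 ratio of a transcript to the other transcripts of its gene. For exon I it differed by 1.76 ± 0.26 (SE) in control wake against control sleep (limma, adjusted p = 0.101) and by 2.08 ± 0.28 (SE) in Fxr1 wake against control sleep (limma, adjusted p = 0.0506). Neither passed the threshold. No ratio of a Bdnf or Ntrk2 transcript was called in any comparison. At an unadjusted p below 0.05 there were 5 of 7 in control wake against control sleep, 0 of 6 in Fxr1 wake against control wake and 5 of 7 in Fxr1 wake against control sleep. Both times the 5 were Bdnf transcripts, exon I higher and the others lower. Each of those others has exon I in the lower part of its ratio, so the 5 are not separate results. Few ratios were called at all: 0.457%, 0.836% and 0.152% of all transcript ratios were called in these 3 comparisons. Such shares are of adjusted calls, and that of all ratios below an unadjusted p of 0.05 is not given. With the ratio fits on transcripts above 2 FPKM, the exon I ratio of Fxr1 wake against control sleep was called (adjusted p = 0.0331).

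**Figure D3:**
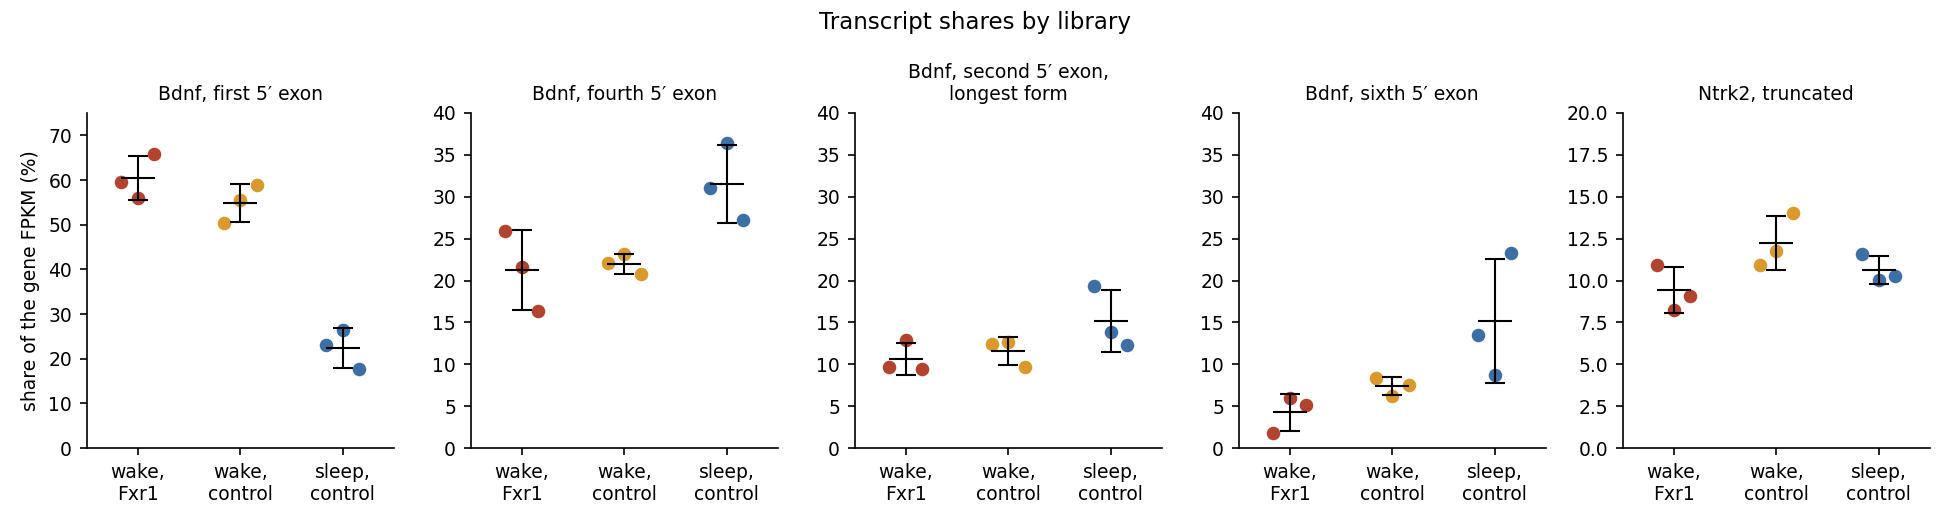
Share of the gene's FPKM (%, axes from 0, scaled per panel) held by 4 Bdnf transcripts and by the truncated Ntrk2 transcript: points are libraries, bars the mean and SD of 3. Exon I of Bdnf holds 50.3% to 65.8% in the 6 wake libraries and 17.6% to 26.5% in the 3 sleep libraries, and truncated Ntrk2 holds 8.2% to 14.1% everywhere.

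The transcripts are told apart by their first exons, so the fragments there set the precision. From its FPKM and the estimated depth, the 640 bases of exon I correspond to 404 to 436 fragments in Fxr1 wake, 260 to 334 in control wake and 44 to 62 in control sleep. The 339 bases of exon IV correspond to 55 to 100, 55 to 74 and 36 to 44 fragments in the same groups. For exon VI it was 7 to 31 fragments over the 9 libraries. An antisense gene model, Gm45346, overlaps 497 of the 640 bases of exon I and 399 of the 499 bases of the longest exon II. The libraries were made with a stranded kit, but no source used here says whether the authors' estimates took strand into account. Without strand, reads of Bdnf exon I and of this antisense model could not be told apart. Gm45346 is not listed in the deposited tables, so its level could not be set beside that of exon I.

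Ntf3, the ligand of TrkC, was close to the lower end of measurement. It was at 0.889, 0.558 and 0.308 FPKM in Fxr1 wake, 1.05, 0.554 and 0.637 FPKM in control wake, and 0.983, 1.18 and 1.16 FPKM in control sleep, which corresponds to an estimated 16 to 53 fragments per library. Fxr1 wake lay below control sleep with no overlap, and control wake overlapped both. The log2 fold change was -0.28 ± 0.12 (SE) in control wake against control sleep (limma, adjusted p = 0.120), -0.15 in Fxr1 wake against control wake (limma, adjusted p = 0.535) and -0.43 ± 0.15 (SE) in Fxr1 wake against control sleep (limma, adjusted p = 0.113). None was called, and on the log2(FPKM + 1) scale such low values understate a change. Without Fxr1 wake library 1 the last of these was -0.56 and was called (limma, adjusted p = 0.0440). Without control wake library 1, control wake against control sleep was -0.40 and was called (limma, adjusted p = 0.0404). With the GC and length trend removed, control wake against control sleep was -0.21 and Fxr1 wake against control wake -0.13. Fxr1 wake against control sleep was then -0.33, and none of these was called. The gene lies at GRCm38 chromosome 6, 126101412 to 126166910, minus strand (ENSMUSG00000049107). The estimates moved between its 2 main transcripts from library to library, each being listed at 0 in some, so they are not read separately.

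Ntrk2, the receptor of BDNF, was abundant and differed little between groups. Its level was 89.4, 94.0 and 96.1 FPKM in Fxr1 wake, 98.6, 103 and 101 FPKM in control wake, and 88.2, 78.7 and 87.3 FPKM in control sleep. Control wake was above control sleep in every library, with a ratio of means of 1.19. With a log2 fold change of 0.25 ± 0.06 (SE), Ntrk2 was the second called member of that comparison (limma, adjusted p = 0.0277). The call was narrow: with the GC and length trend removed the log2 fold change was 0.19 and the adjusted p 0.0508, and it was also lost without any 1 control wake library or without control sleep library 3 (adjusted p 0.0563 to 0.0954). All 3 Fxr1 wake libraries were below all 3 control wake libraries, yet the log2 fold change of -0.11 was not called (limma, adjusted p = 0.298), 52.5% of all genes had groups that did not overlap in that comparison, and with every library set to the same median it was 0.07. Against control sleep it was 0.14 in Fxr1 wake (limma, adjusted p = 0.222).

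Most of Ntrk2 was the kinase-encoding form. ENSMUST00000079828 was at 79.6, 86.2 and 87.4 FPKM in Fxr1 wake, 87.8, 91.1 and 86.5 FPKM in control wake, and 78.0, 70.8 and 78.4 FPKM in control sleep. The truncated ENSMUST00000109838, the form that is known to predominate in astrocytes, was at 9.79, 7.75 and 8.76 FPKM in Fxr1 wake, 10.8, 12.1 and 14.2 FPKM in control wake, and 10.2, 7.90 and 8.96 FPKM in control sleep. Control wake had the highest values of the truncated form, with no overlap with either other group. Such a separation was common over all transcripts, at 32.8% in control wake against control sleep and 34.2% in Fxr1 wake against control wake. The log2 fold change of the truncated form was 0.41 ± 0.13 (SE) in control wake against control sleep (limma, adjusted p = 0.158) and -0.45 ± 0.14 (SE) in Fxr1 wake against control wake (limma, adjusted p = 0.223). Neither was called.

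The kinase-encoding form made up 89.1%, 91.8% and 90.9% of Ntrk2 FPKM in Fxr1 wake, 89.0%, 88.3% and 85.9% in control wake, and 88.4%, 90.0% and 89.7% in control sleep. The difference was 2.82 percentage points between Fxr1 wake and control wake (exact permutation test, 2-sided, p = 0.1, the smallest possible) and -1.62 percentage points between control wake and control sleep (exact permutation test, p = 0.2). For Fxr1 wake against control sleep it was 1.19 percentage points (exact permutation test, p = 0.3). Single libraries moved these values: the difference of control wake from control sleep lay between -2.27 and -0.72 percentage points when 1 library was left out, the smallest without control wake library 3. That of Fxr1 wake from control sleep lay between 0.60 without Fxr1 wake library 2 and 1.95 without Fxr1 wake library 1. The order of the truncated form over the groups was also that of the summed astrocyte markers given above, which were highest in control wake, and their part in the share was not tested. The sum rests largely on abundant genes such as Glul, at 163 FPKM in Fxr1 wake, 233 FPKM in control wake and 168 FPKM in control sleep on average. Of the 15 markers 3 were called higher and 2 lower in control wake against control sleep, the lower ones being Slc4a4 and Sox9, and these 3 genes were named after their values were seen. The order of the groups was not particular to astrocyte markers. Summed excitatory neuron markers were at 571 to 754 FPKM in Fxr1 wake, 820 to 955 FPKM in control wake and 715 to 814 FPKM in control sleep. Summed endothelial and mural markers were not highest in control wake, at 14.5 to 16.1 FPKM, against 15.9 to 19.7 FPKM in control sleep. The annotation used here lists 10 Ntrk2 transcripts, of which these 2 are in the tables.

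Ntrk3, the receptor of neurotrophin 3, had its highest mean with Fxr1, without a call. Its level was 42.5, 45.5 and 39.3 FPKM in Fxr1 wake, 39.5, 33.1 and 33.6 FPKM in control wake, and 29.99, 35.7 and 29.9 FPKM in control sleep. Fxr1 wake was separate from control sleep, and it overlapped control wake by 1 library. Ntrk3 had a log2 fold change of 0.26 ± 0.11 (SE) in Fxr1 wake against control wake (limma, adjusted p = 0.128), 0.41 ± 0.11 (SE) in Fxr1 wake against control sleep (limma, adjusted p = 0.0523) and 0.15 in control wake against control sleep (limma, adjusted p = 0.299). None passed. With the GC and length trend removed the difference between Fxr1 wake and control wake was 0.03, and between Fxr1 wake and control sleep 0.22. Ntrk3 lies at GRCm38 chromosome 7, 78175959 to 78738012, minus strand (ENSMUSG00000059146), and its GC content of 43.6% stands at percentile 19.1 of the measured genes.

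Among the Ntrk3 transcripts the kinase-encoding ENSMUST00000039431 had the highest mean in each group. It was at 27.3, 21.9 and 24.4 FPKM in Fxr1 wake, 17.0, 19.3 and 18.3 FPKM in control wake, and 17.8, 16.7 and 17.7 FPKM in control sleep. All 3 Fxr1 wake libraries were above all 6 others. Its log2 fold change was 0.41 ± 0.11 (SE) in Fxr1 wake against control wake (limma, adjusted p = 0.211) and 0.47 ± 0.10 (SE) in Fxr1 wake against control sleep (limma, adjusted p = 0.0942), neither called. Groups of libraries that do not overlap were common at this level, with 34.2% and 21.8% of all transcripts. The truncated ENSMUST00000039438 was at 10.4, 17.9 and 11.98 FPKM in Fxr1 wake, 9.21, 11.5 and 11.2 FPKM in control wake, and 10.3, 10.1 and 10.4 FPKM in control sleep. The share of the 3 kinase-encoding transcripts in the gene averaged 65.6 ± 7.4% in Fxr1 wake, 64.6 ± 6.5% in control wake and 64.2 ± 2.7% in control sleep (SD, n = 3 each), with p from 0.8 to 0.9 in exact permutation tests. Another kinase-encoding transcript, ENSMUST00000195262, was estimated at 3.05, 0.733 and 0.367 FPKM in Fxr1 wake, 7.57, 0.535 and 0.858 FPKM in control wake and at 0.287, 6.68 and 0.154 FPKM in control sleep, a swing within groups that follows no condition.

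The balance of the 2 receptor genes was compared as well. The ratio of Ntrk2 to Ntrk3 gene FPKM was 2.1, 2.06 and 2.45 in Fxr1 wake, 2.495, 3.12 and 2.998 in control wake, and 2.94, 2.20 and 2.92 in control sleep. It was lower in every Fxr1 wake library than in every control wake library (exact permutation test, 2-sided, p = 0.1, the smallest possible), and Fxr1 wake overlapped control sleep (p = 0.2 in the same exact test). The ratio was added outside the planned tests. Groups that did not overlap were common between Fxr1 wake and control wake, with 52.5% of all genes, and here the nearest libraries were close, at 2.45 and 2.495. After removal of the GC and length trend, the log2 fold changes of Fxr1 wake against control wake were -0.10 for Ntrk2 and 0.03 for Ntrk3, closer to each other than the -0.11 and 0.26 of the deposited values.

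Sort1, which encodes sortilin, had no called difference. It was at 109, 127 and 127 FPKM in Fxr1 wake, 116, 126 and 124 FPKM in control wake, and 122, 118 and 120 FPKM in control sleep. The groups overlapped throughout. Sort1 had a log2 fold change of 0.02 in control wake against control sleep, with a 95% interval of -0.10 to 0.15 (limma, adjusted p = 0.778), -0.01 in Fxr1 wake against control wake, with an interval of -0.24 to 0.22 (limma, adjusted p = 0.944), and 0.01 in Fxr1 wake against control sleep, with an interval of -0.17 to 0.19 (limma, adjusted p = 0.932). Its sign depended on the scaling: Fxr1 wake against control wake was 0.14 with the GC and length trend removed and 0.17 with an equal median per library, and control wake against control sleep was -0.09 and -0.05. The gene lies at GRCm38 chromosome 3, 108284082 to 108361511, plus strand (ENSMUSG00000068747).

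Sort1 has 2 protein-coding transcripts in the tables that differ by 1 exon of 99 bases, exon 18 of the 21 of ENSMUST00000135636, at chr3:108355472-108355570. Its sequence, all in capitals, is shown because it alone separates the forms in the coding region.
Sort1 extra exon: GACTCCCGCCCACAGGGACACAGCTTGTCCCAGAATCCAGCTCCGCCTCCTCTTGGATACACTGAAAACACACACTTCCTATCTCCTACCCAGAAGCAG
The form with this exon made up 15.6%, 25.8% and 20.1% of Sort1 FPKM in Fxr1 wake, 27.4%, 25.5% and 23.3% in control wake, and 22%, 17.5% and 23.8% in control sleep. The groups overlapped, with p = 0.3 for Fxr1 wake against control wake, p = 0.2 for control wake against control sleep and p = 1 for Fxr1 wake against control sleep in exact permutation tests. The remaining transcript, ENSMUST00000129755, is annotated as a retained intron and stayed at 0.738 to 3.06 FPKM.

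**Figure D4:**
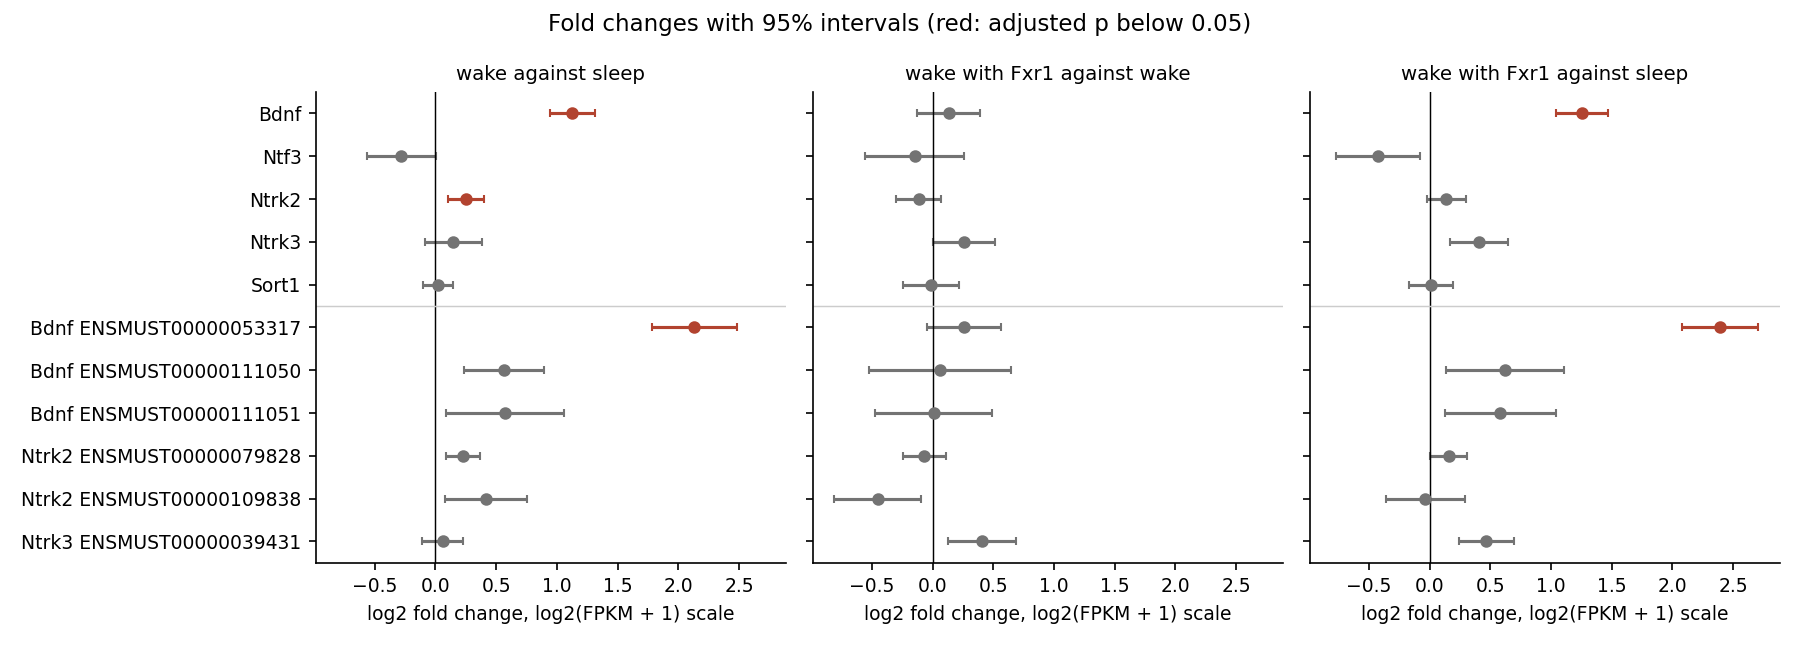
Log2 fold changes on the log2(FPKM + 1) scale (horizontal axes) with 95% intervals from limma for the 5 genes, above the line, and 6 of their transcripts, below it, in the 3 comparisons; red marks an adjusted p below 0.05. Bdnf and its exon I transcript are called in both comparisons against sleep, at 1.13 and 2.13 in control wake and at 1.26 and 2.39 in wake with Fxr1, and nothing is called between the wake groups.

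Levels per length can be compared between the genes. In sleep the order was Sort1 at 120 FPKM, Ntrk2 at 84.7 FPKM, Ntrk3 at 31.8 FPKM, Bdnf at 12.2 FPKM and Ntf3 at 1.11 FPKM. In Fxr1 wake it was Sort1 at 121 FPKM, Ntrk2 at 93.2 FPKM, Ntrk3 at 42.4 FPKM, Bdnf at 30.6 FPKM and Ntf3 at 0.585 FPKM. The order is the same in both, and in control wake Bdnf, at 25.9 to 30.7 FPKM, came close to Ntrk3, at 33.1 to 39.5 FPKM, without overlap. In none of the groups did the libraries of neighbouring genes in that order overlap. Of the other genes of the family, Ntf5, which encodes another ligand of TrkB, and the receptor gene Ngfr had means below 0.1 FPKM in each group.

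Of 4 sorting receptor genes related to Sort1, 3 rose in wake. Of 8 other neurotrophin and receptor genes, 5 could be tested, and 3 rose and 0 fell in control wake against control sleep: Sorcs2 by 0.64 ± 0.09, Sorcs3 by 0.42 ± 0.08 and Sorl1 by 0.24 ± 0.06 on the log2 scale (SE; limma, adjusted p = 0.00544, 0.0139 and 0.0252). All 3 encode sorting receptors of the sortilin family. Sorcs1, of the same family and named after its values were seen, was at 12.1 ± 0.5 FPKM in control wake and 12.5 ± 0.6 FPKM in control sleep (SD, n = 3 each), a difference of -0.05 on the log2 scale that was not called (limma, adjusted p = 0.615). Over all genes tested, 28.3% were called in that comparison and 15.7% were called higher. The counts of the lists below stand beside the same shares for that comparison as deposited. With the GC and length trend removed, 1511 of 14644 genes were called higher and 1899 lower there. In Fxr1 wake against control sleep 7.79% of all genes were called and 3.2% were called higher. With the trend removed, 1057 of 14589 genes were called higher and 826 lower in Fxr1 wake against control sleep. The median of the 5 neurotrophin and receptor genes tested was 0.24 in control wake against control sleep, and 2 were called with the trend removed. Between Fxr1 wake and control sleep only Sorcs3 was called (0.41, limma, adjusted p = 0.0389), at 18.5 ± 1.6 FPKM in Fxr1 wake, 18.7 ± 1.2 FPKM in control wake and 13.7 ± 1.2 FPKM in control sleep (SD, n = 3 each).

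Of 13 tested genes for processing and release of the BDNF precursor, 4 rose and 1 fell in control wake against control sleep, where 28.3% of all genes were called. Pcsk1, a convertase of secretory granules, was at 55.3, 49.5 and 42.3 FPKM in Fxr1 wake, 44.3, 43.8 and 39.4 FPKM in control wake, and 24.5, 26.1 and 25.6 FPKM in control sleep, with all wake libraries above sleep. It rose by 0.72 ± 0.06 on the log2 scale in control wake (limma, adjusted p = 0.00178) and by 0.91 ± 0.10 in Fxr1 wake (limma, adjusted p = 0.00319) against control sleep. Plat, tissue plasminogen activator, rose by 0.64 ± 0.08, and Furin, a convertase of the secretory pathway, by 0.89 ± 0.15 in control wake against control sleep (limma, adjusted p = 0.00397 and 0.00980). Furin was at 0.638, 1.59 and 2.17 FPKM in Fxr1 wake, 2.83, 3.05 and 4.03 FPKM in control wake, and 1.61, 0.927 and 1.43 FPKM in control sleep. The others called were Pcsk7, which was higher by 0.41 on the log2 scale, and the convertase gene Pcsk2, which was lower at -0.29, both named after their values were seen. With the GC and length trend removed 3 of the 13 were higher and 3 lower.

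Among 20 genes of Trk adaptors and signalling, 4 rose and 2 fell in control wake against control sleep, a share close to the 28.3% of all genes called. Rps6ka2, which encodes a kinase of growth factor signalling, rose by 0.67 ± 0.09, and the Trk adaptor gene Sh2b1 rose by 0.59 ± 0.11 on the log2 scale (SE; limma, adjusted p = 0.00552 and 0.0129). With the GC and length trend removed 2 were higher and 3 lower. In Fxr1 wake against control sleep, where 7.79% of all genes were called, 1 of the 20 was called. This was Mapk3, which fell by 0.64 on the log2 scale (limma, adjusted p = 0.0482). That call was lost with the GC and length trend removed, as 0 of the 20 were lower and 1 was higher.

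Of 15 tested regulators of Bdnf transcription, 4 rose and 3 fell in control wake against control sleep, where 28.3% of all genes were called. Npas4, an activity-induced factor, was at 1.68, 2.85 and 2.96 FPKM in Fxr1 wake, 5.40, 4.89 and 4.73 FPKM in control wake, and 1.74, 2.99 and 1.3 FPKM in control sleep. Every control wake library was above the other 6, and Fxr1 wake overlapped sleep. The log2 fold change was 1.03 ± 0.19 (SE) in control wake against control sleep (limma, adjusted p = 0.0129), -0.80 in Fxr1 wake against control wake (limma, adjusted p = 0.0878) and 0.23 in Fxr1 wake against control sleep (limma, adjusted p = 0.478). Crtc1, a coactivator of CREB, named after its values were seen, was at 5.63, 13.3 and 14.0 FPKM in Fxr1 wake, 18.9, 19.6 and 23.8 FPKM in control wake, and 3.82, 11.4 and 3.81 FPKM in control sleep. Camk4, a kinase that acts on CREB, fell by 0.48, and the factor gene Mef2a fell by 0.40 on the log2 scale in control wake against control sleep (limma, adjusted p = 0.00374 and 0.00683). With the GC and length trend removed 0 of the 15 were higher and 4 lower, so the called rises of this list, Npas4 and Crtc1 among them, were lost.

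Genes known to respond to BDNF showed the highest list median. The list was chosen with earlier results of these data known, so its count and median only describe these genes. In control wake against control sleep 7 of 10 rose and none fell, where 15.7% of all genes were called higher. The median of the list on the log2 scale was 1.11, against 0.00 for all genes. Many of them respond to neuronal activity in general. Arc, an immediate early gene of the synapse, was at 14.8, 49.5 and 56.8 FPKM in Fxr1 wake, 99.2, 97.5 and 107 FPKM in control wake, and 14.0, 9.04 and 9.58 FPKM in control sleep. Its Fxr1 wake libraries spread widely, and its differences of -1.51 from control wake (limma, adjusted p = 0.0925) and of 1.62 from control sleep (limma, adjusted p = 0.0562) were not called. In control wake against control sleep Arc rose by 3.13 ± 0.15 on the log2 scale, the transcription factor gene Egr1 by 1.27 ± 0.07, and the secreted synaptic protein gene Nptx2 by 1.81 ± 0.15 (SE; limma, adjusted p = 0.000394, 0.000523 and 0.00135). With the GC and length trend removed 6 were higher. In Fxr1 wake against control sleep, where 7.79% of all genes were called and 3.2% were called higher, 4 of 10 rose and 0 fell. Among them were Egr1 by 0.92, Homer1 by 1.17 and Fos by 1.20 (limma, adjusted p = 0.00145, 0.00145 and 0.0118).

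Between Fxr1 wake and control wake, only 1 gene of the 5 lists was called. Fos was at 14.3, 14.8 and 13.5 FPKM in Fxr1 wake, against 25.1, 24.4 and 22.1 FPKM in control wake, and fell by 0.71 on the log2 scale (limma, adjusted p = 0.0443). With the GC and length trend removed it was not called. The median of that list was -0.55, against -0.06 over all genes, while Bdnf, at 0.13, had no called difference; with the trend removed the list's median was 0.07. Calls in this comparison depended on Fxr1 wake library 1: over all genes 60 were called with it and 3316 without it. The list counts without that library stand beside this larger count and are not particular to the lists. Of the genes known to respond to BDNF 1 was then higher and 6 were lower. For Trk adaptors and signalling 4 genes were higher and 6 lower, and 3 regulators of Bdnf transcription were higher and 4 lower. Among the processing genes 2 were lower and among the other neurotrophin and receptor genes 1 was lower.

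**Figure D5:**
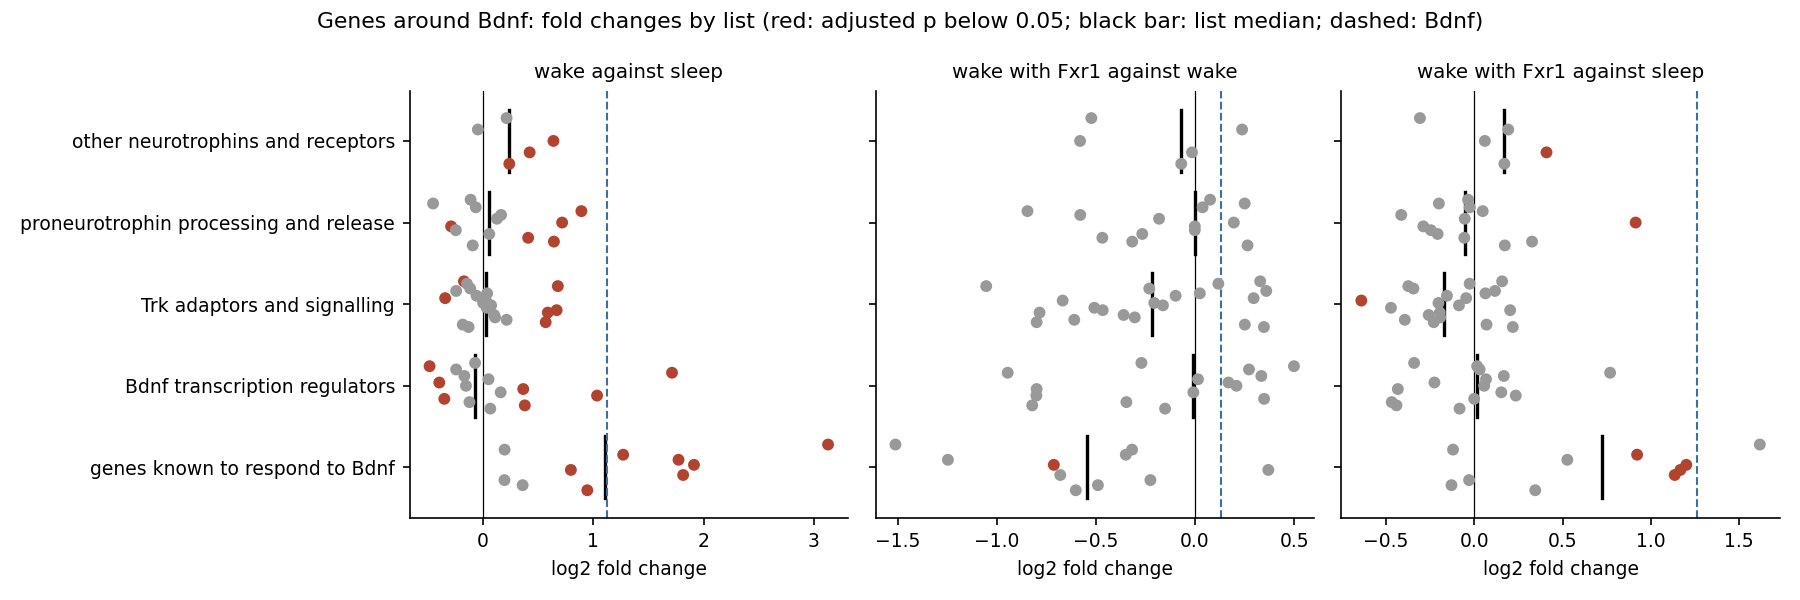
Log2 fold changes (horizontal axes, 1 panel per comparison) of the tested genes of 5 lists around Bdnf: each point is a gene, red marks an adjusted p below 0.05, the black bar is the median of the list, and the dashed line is Bdnf. In control wake against control sleep the list of genes known to respond to Bdnf has a median of 1.11, near the Bdnf value of 1.13, and between the wake groups its median is -0.55 while Bdnf is at 0.13.

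By likeness of pattern over the 9 libraries, the 5 genes nearest to Bdnf among 11469 genes with a mean of at least 1 FPKM and a standard symbol were Cbln4 (Pearson's r = 0.995), Mettl16 (0.984), Errfi1 (0.983), Ldah (0.983) and Sult1a1 (0.983). These are descriptions over 9 libraries that share a contrast between wake and sleep, picked as the highest of many. Genes with Gm, Rik or accession-like names were left out of the ranking. Cbln4, a secreted synaptic organizer of the cerebellin family, was at 9.33, 8.81 and 7.80 FPKM in Fxr1 wake, 7.55, 8.14 and 8.01 FPKM in control wake, and 2.83, 2.47 and 2.82 FPKM in control sleep. All 5 genes were higher in every wake library than in every sleep library, which follows largely from picking them by likeness to Bdnf.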

How the data were processed

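Ribosome-associated RNA of 9 libraries was measured by RNA sequencing. FPKM per transcript and library were estimated by the authors and deposited in 2 tables, per the file headers. StringTie 1.3.4d, HISAT2 2.1.0 and SAMtools 1.9 are the software, and GRCm38 the build, per the submitters' processing notes. The tables also hold the authors' fold (a ratio, sleep over wake or Fxr1 over wake), p-value and q-value, per the file headers; which tool made these is not given in the sources used. The control wake values are the same in both tables, so the 9 libraries were set side by side.

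FPKM are not counts and are relative to the rest of their library. Gene values are sums of transcript FPKM by symbol. On the scale of log2(FPKM + 1) they entered linear models of limma 3.58.1 (R 4.3.3) with an intensity trend, after a filter of a mean of at least 0.5 FPKM over the compared libraries, 2-sided, with Benjamini-Hochberg adjustment over all features and a threshold of 0.05. The 2 comparisons within a table used their own 6 libraries, and Fxr1 wake against control sleep used all 9. Transcript usage was tested as the log2 ratio of 1 + a transcript's FPKM to 1 + that of the other transcripts of its gene. Single ratios and shares were compared by exact permutation tests, whose smallest p with 3 against 3 libraries is 0.1. Of these tests only that of the Ntrk2 kinase-encoding share was planned. The fits were tested on simulated data.

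Named are the 5 members, each Bdnf and Ntrk2 transcript with a mean of at least 0.5 FPKM, the most abundant transcripts of the others, up to 3 called genes with the smallest p per list and comparison, Ntf5, Ngfr, Fxr1, and the 5 genes most correlated with Bdnf; a few genes that this rule also names are not reported here. The members and lists were chosen with earlier results of these data known. Alternatives were other pseudocounts and filters, an equal median per library, removal of the trend of GC content and length with splines of 5 degrees of freedom, a replicate block, array weights, 1 fit over 9 libraries, and leaving out each library. For the lists, the GC correction and leaving out Fxr1 wake library 1 were added after seeing the data. The cell type lists held astrocyte, oligodendrocyte, microglia, endothelial and mural, and excitatory and inhibitory neuron markers. Positions and coding lengths are from GENCODE M21.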

Additional observations from a re-analysis of the deposited data

How the results depend on the processing

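The rise of Bdnf in wake held its direction and its call in every alternative run: its log2 fold change was 1.05 to 1.3 in control wake against control sleep and 1.15 to 1.37 in Fxr1 wake against control sleep, and 1.06 to 1.17 and 1.19 to 1.32 when single libraries were left out. Between Fxr1 wake and control wake, where it was not called, it was -0.16 with the GC and length trend removed, with or without the replicate block, 0.06 to 0.20 when libraries were left out, and otherwise up to 0.31.

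The members called in control wake against control sleep were 1 instead of 2, Ntrk2 being lost, with no filter, an equal median per library, the GC and length trend removed, the replicate block with or without that correction, and all 9 libraries in 1 fit, and 1 to 2 when libraries were left out. In Fxr1 wake against control wake 1 member was called with array weights (Ntrk3). In Fxr1 wake against control sleep 2 were called with an equal median and 3 with array weights, and 1 to 2 when libraries were left out. With the replicate block 0 member transcripts were called in control wake against control sleep (exon I: 0.144 adjusted p), where the calls over all transcripts fell to 11 in place of 1055. With no filter the shares called were 4 in control wake against control sleep and 7 in Fxr1 wake against control sleep, exon I among both, most of the others from transcripts below 0.5 FPKM; with a filter at 2 FPKM, 1 was called in Fxr1 wake against control sleep.

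Replicate numbers showed no sign of pairing the samples: the correlations of same-numbered deviations lay between -0.253 and 0.167. Libraries did not all correlate best with their own number, and 3 libraries per group cannot settle the question. With the block, 1 gene was called between Fxr1 wake and control wake and 372 in Fxr1 wake against control sleep. Of 1049 fold changes and ratio differences recomputed, 57 changed sign, none of them called. Among all genes, setting libraries to an equal median moved the median log2 fold change by -0.07, 0.18 and 0.11 in control wake against control sleep, Fxr1 wake against control wake and Fxr1 wake against control sleep. Of the genes called in these 3 comparisons, 55.3%, 20% and 41.1% were higher as deposited, 39.3%, 27.0% and 64.6% with an equal median, and 44.3%, 37.2% and 56.1% with the GC trend removed. Genes called between Fxr1 wake and control wake numbered 60, 2 to 3316 when libraries were left out, and 1 to 6811 otherwise; in Fxr1 wake against control sleep 1138, 248 to 1440 and 372 to 5032; in control wake against control sleep 4156, 1822 to 3631 and 1398 to 5552. For transcripts the counts were 1055 in control wake against control sleep, 258 in Fxr1 wake against control wake and 237 in Fxr1 wake against control sleep. When libraries were left out they were 256 to 611, 167 to 787 and 96 to 328 in that order. The first-exon fragments of exons other than I limit what the transcript values can show, and Ntf3 rests on 16 to 53 fragments a library.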
